A study of Mus musculus with 9 samples.

Results

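Rac1 and 7 partners that connect it to the actin skeleton of dendritic spines were described here by their CpG methylation in the nucleus accumbens, the part of the ventral striatum that serves reward and motivation. The members were taken by name: the small GTPases Rac1, Rhoa and Cdc42, the guanine exchange factors Tiam1 and Kalrn, the kinases Pak1 and Limk1, and the actin-severing protein Cfl1. They are 8 of 34324 genes on the autosomes and X that code for proteins or long noncoding RNAs. Whole-genome bisulfite sequencing was used, in which unmethylated cytosines are converted and methylated or hydroxymethylated ones are still read as C. The methylation level of a region is the share of calls over its CpGs that read as C.

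All 9 libraries came from male C57BL/6J mice of age 8 weeks, with no transgene or drug named in the labels. By the labels, 5 libraries are Control (2, 3, 4, 5 and 8) and the other 4 Susceptible (2, 3, 6 and 7). Every library carries the same treatment text, 10 daily defeats by a CD1 aggressor, a social stress after which some mice avoid others and are termed susceptible. The labels do not say what handling the Control mice received, by which test mice were scored as susceptible, or whether a library is 1 mouse or a pool. The p-values therefore measure the spread between these libraries. Frozen tissue punches hold all cell types of the region, and a level is an average over them. The comparison asked whether methylation at these genes differed between the groups, since Rac1 in the accumbens has been tied to social defeat.

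Small GTPases switch between a GTP-bound state that engages effectors and a GDP-bound state that does not. Exchange factors such as Tiam1 and kalirin (Kalrn) load them with GTP. Rac1 and Cdc42 activate the kinase Pak1, Pak1 activates LIM kinase (Limk1), and Limk1 phosphorylates and inactivates cofilin (Cfl1), which otherwise severs actin filaments. Rhoa is known for shrinking spines, while Rac1 is known for forming and enlarging them. Methylation of a CpG-rich start goes with a silent gene, whereas bodies of active genes are usually methylated.

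At the listed starts of these genes, methylation was low where CpGs were dense and varied widely where they were sparse. RefSeq's promoter sequences for GRCm38.p6, the build the files use, held 11 starts of 7 members. The 250 bases before 6 of these starts are printed 5′ to 3′ on the gene's strand, chosen because they span the range from CpG-rich to CpG-poor and include both starts of Limk1. Capitals mark CpGs. The stretches are Pak1 chr7:97788291-97788540 (+ strand), Cfl1 chr19:5490205-5490454 (+), Limk1 chr5:134688591-134688840 (- strand), a second Limk1 start chr5:134678249-134678498 (-), Tiam1 chr16:89974700-89974949 (-) and Kalrn chr16:34514028-34514277 (-). The starts of Pak1 and Cfl1 are the genes' outer 5′ bounds. Both Limk1 starts and those of Tiam1 and Kalrn lie inside the outer bounds, the first Limk1 start within 2000 bp of them.
Pak1: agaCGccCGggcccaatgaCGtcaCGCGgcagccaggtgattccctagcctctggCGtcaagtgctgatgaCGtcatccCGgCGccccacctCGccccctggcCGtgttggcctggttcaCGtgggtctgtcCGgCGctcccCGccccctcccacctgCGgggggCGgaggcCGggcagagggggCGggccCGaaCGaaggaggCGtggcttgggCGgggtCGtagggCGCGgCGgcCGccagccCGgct
Cfl1: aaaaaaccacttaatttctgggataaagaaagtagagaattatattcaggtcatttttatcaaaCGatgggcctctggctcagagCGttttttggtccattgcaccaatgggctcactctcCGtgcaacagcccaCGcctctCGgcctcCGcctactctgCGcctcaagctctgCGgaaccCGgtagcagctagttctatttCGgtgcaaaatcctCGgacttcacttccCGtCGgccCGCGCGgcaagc
Limk1, first start: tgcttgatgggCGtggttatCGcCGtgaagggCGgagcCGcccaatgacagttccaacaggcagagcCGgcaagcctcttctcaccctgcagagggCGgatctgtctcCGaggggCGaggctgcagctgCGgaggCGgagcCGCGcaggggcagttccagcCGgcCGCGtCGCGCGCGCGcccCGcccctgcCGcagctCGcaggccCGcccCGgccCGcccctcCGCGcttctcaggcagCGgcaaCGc
Limk1, second start: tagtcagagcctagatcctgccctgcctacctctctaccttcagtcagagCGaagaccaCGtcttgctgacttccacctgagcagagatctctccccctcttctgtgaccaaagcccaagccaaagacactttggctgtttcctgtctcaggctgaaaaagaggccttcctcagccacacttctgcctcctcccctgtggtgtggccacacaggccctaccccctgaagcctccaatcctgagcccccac
Tiam1, internal start: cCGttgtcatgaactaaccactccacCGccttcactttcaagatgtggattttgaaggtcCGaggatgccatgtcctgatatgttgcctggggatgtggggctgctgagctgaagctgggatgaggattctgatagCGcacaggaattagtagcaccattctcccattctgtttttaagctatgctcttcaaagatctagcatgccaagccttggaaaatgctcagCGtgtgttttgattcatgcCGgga
Kalrn, internal start: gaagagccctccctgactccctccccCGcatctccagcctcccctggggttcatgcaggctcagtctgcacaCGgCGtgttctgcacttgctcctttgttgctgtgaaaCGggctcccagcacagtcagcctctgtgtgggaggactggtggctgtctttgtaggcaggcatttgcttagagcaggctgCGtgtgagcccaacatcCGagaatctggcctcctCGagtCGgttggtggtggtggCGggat

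The first Limk1 stretch holds 31 CpGs and read 1.47% in the mean of all 9 libraries, and the Pak1 stretch, with 29 CpGs, read 1.72%. The Cfl1 stretch holds 16 CpGs and read 1.58%. The second Limk1 stretch holds only 2 CpGs and read 92.4%. It lies in the bounds of Gm10369, a long noncoding RNA gene. The 6 CpGs of the Tiam1 stretch averaged 83.6%, and the 9 CpGs of the Kalrn stretch averaged 12.6%. Among the 19272 of 32619 listed starts with at least 20 calls per library in these bases, the median level was 82.6% for the 3766 with 0 to 4 CpGs in these 250 bases, 54.2% for the 4329 with 5 to 9, and 1.14% for the 5474 with 20 or more. The quartiles at 5 to 9 CpGs were 5.04% and 86.4%, so the Tiam1 and Kalrn stretches both lie within that wide range. In the second Limk1 stretch, Control libraries read 92.2 to 100% and Susceptible libraries 75 to 96.9%, which overlap, from 33 to 84 calls over its CpGs. That difference was not tested.

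2 short motifs that contain a CpG were searched in the 250 bases before and 50 after each listed start, both being palindromes that read alike on both strands. TGACGTCA, the cyclic AMP response element, occurs in 588 of 32619 starts (1.80%) and in 2 of the 11 member starts. Pak1 holds it with CpGs 231 and 179 bases before its start (-231 and -179), and Cdc42 with a CpG 38 bases after. The E-box CACGTG occurs in 2348 starts (7.20%) and, among the members, in Pak1 with its CpG at -130. The 3 Pak1 motifs do not overlap. Their CpGs averaged 1.83%, 0% and 0% in that order, from 13 to 56 calls per library, and the Cdc42 CpG averaged 0.649% in the 8 libraries that list it. These matches are descriptions of sequence and not evidence of binding.

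The starts of 7 of the 8 genes were low in methylation in both groups, and none of the 8 passed the test of a difference between them. A start is the 1000 bp on each side of the gene's outer 5′ bound in RefSeq. For Rac1, whose strand the tables used do not give, the CpG-richer bound stood in. The mean over all 9 libraries ran upward from Kalrn (1.24%) through Rhoa (1.41%), Rac1 (1.51%), Cfl1 (1.52%), Pak1 (2.90%), Limk1 (4.69%) and Cdc42 (5.85%) to Tiam1 (40.1%). Each neighbour in that order overlapped the next in its range over libraries, except that Tiam1, at 34.5 to 44.5%, stood clear of Cdc42, at 2.10 to 10.2%. Of all 30874 starts tested, 36.0% read under 10%.

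**Figure D1:**
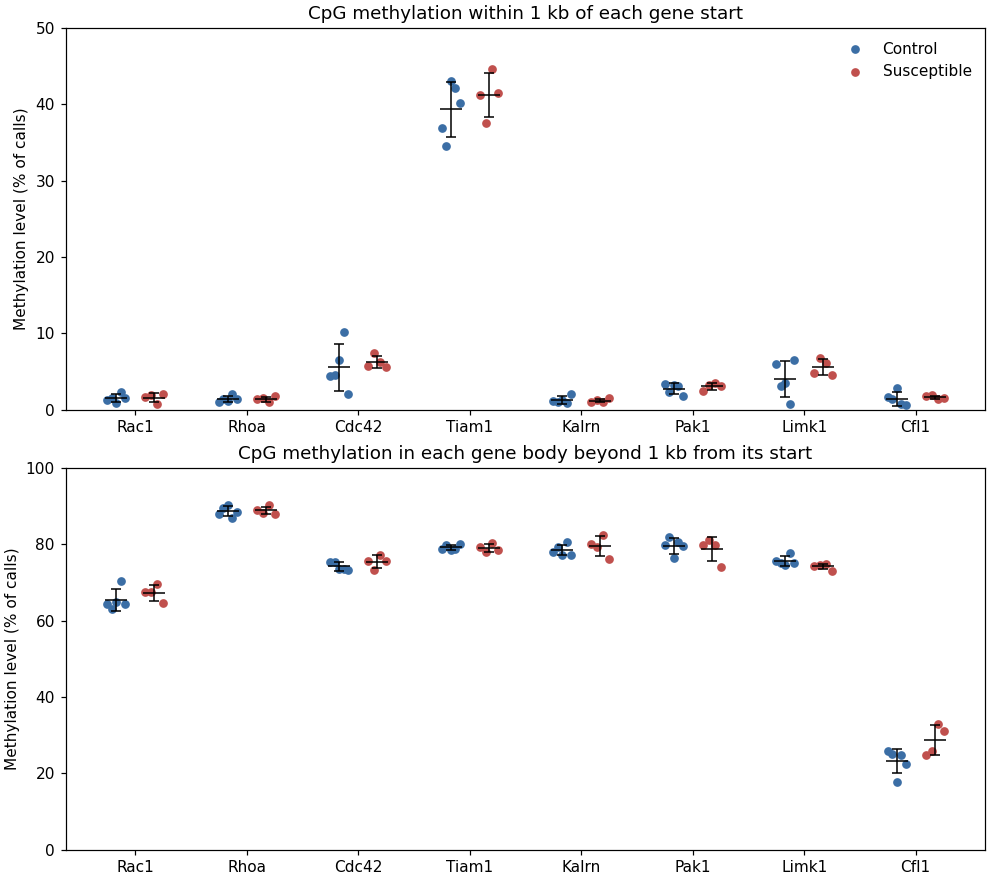
Methylation level in percent of calls for each gene (x axis), per library, at the start (upper panel) and in the gene body beyond 1 kb from the start (lower panel). Points are libraries, bars are the mean and SD of 5 Control and 4 Susceptible libraries. Only the Tiam1 start lies above 30%, the body levels sit between 60 and 90.3% except in Cfl1, and the groups overlap in every column.

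Rac1, the central GTPase of the set, lies at chr5:143505481-143528031. Its start held 129 CpGs and read 1.29%, 1.47%, 0.857%, 2.29% and 1.496% in Control 2, 3, 4, 5 and 8. Susceptible 2, 3, 6 and 7 read 1.61%, 1.88%, 0.732% and 2.01%. Control averaged 1.48% ± 0.518 (SD, n = 5), Susceptible 1.56% ± 0.573 (SD, n = 4), and the difference was +0.0768 percentage points (quasi-binomial model, adjusted p = 0.998). The groups overlapped, with Control 5 the highest and Susceptible 6 the lowest library. The same holds for Rhoa (chr9:108306160-108337943), a GTPase that promotes contraction of the actin skeleton. Its 144 CpGs read 1.42% ± 0.385 in Control and 1.38% ± 0.333 in Susceptible libraries. The Rhoa start adjoins Tcta, whose gene bounds end where those of Rhoa begin.

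Cdc42 (chr4:137319696-137357759), the GTPase known for filopodia, had the widest spread of the low starts. Its 143 CpGs read 4.39%, 4.52%, 6.46%, 10.2% and 2.10% in Control 2, 3, 4, 5 and 8. Susceptible 2, 3, 6 and 7 read 5.66%, 7.40%, 6.26% and 5.62%. Control 5 and Control 8 were thus the highest and the lowest of all 9. The difference of +0.696 points (5.54% ± 3.04 against 6.23% ± 0.828) was smaller than the Control SD, with an adjusted p of 0.984.

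Limk1 (chr5:134656039-134689859) and Tiam1 (chr16:89787111-90145600) had the largest start differences of the 8, both within the spread and both dependent on single libraries. The 40 CpGs at the Limk1 start read 6.005%, 3.06%, 3.51%, 0.809% and 6.54% in Control 2, 3, 4, 5 and 8, against 4.87%, 6.73%, 6.13% and 4.54% in Susceptible 2, 3, 6 and 7. Control 2 and Control 8 lay among the Susceptible values, and the difference was +1.58 points (unadjusted p = 0.286, adjusted p = 0.976, quasi-binomial model), or +0.7855 without Control 5. The 21 CpGs at the Tiam1 start read 36.9%, 34.5%, 43.0%, 42.1% and 40.2% in the same Control order. They read 41.2%, 37.5%, 44.5% and 41.4% in the Susceptible libraries, a difference of +1.84 points (adjusted p = 0.989), which was +0.628 without Control 3 and +3.06 without Susceptible 3.

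The remaining starts had smaller differences. Kalrn (chr16:33969073-34573277), with 196 CpGs, read 1.28% ± 0.474 in Control and 1.20% ± 0.246 in Susceptible libraries. The start of Pak1 (chr7:97788541-97912381), the kinase downstream of Rac1 and Cdc42, read 2.76% ± 0.674 and 3.08% ± 0.447 over 135 CpGs. Cfl1 (chr19:5490455-5494031), which encodes cofilin, read 1.43% ± 0.883 and 1.63% ± 0.224 over 125 CpGs. In all, 0 of the 8 starts passed an adjusted p of 0.05, where 0 of 30874 starts did, 0%. At an unadjusted p under 0.05 the count was 0 of 8, against 1486 starts or 4.81%. An alternative model, limma on logit methylation, passed 0 starts, 0 bodies and 0 tiles as well. No member's groups were without overlap, against 1.89% of all starts (0.946% with Susceptible higher and 0.943% lower). The Susceptible mean was higher in 6 of 8 members and in 47.2% of all starts, but each of the 8 signs changed in at least 1 alternative setting. The median difference was +0.256 points in the 8 and -0.103 points in all starts.

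Profiles in 500-bp bins placed the unmethylated stretch where it lies relative to each start. It covered the start itself in Rac1, Rhoa, Cdc42, Kalrn, Pak1 and Cfl1. In Tiam1 it began inside the gene: the stretch chr16:90142001-90145000, overlapping the long noncoding RNA gene Gm10789, held 180 CpGs and read 2.33%. The 40.1% of the Tiam1 start window thus averages a methylated side and an edge of this stretch. In Limk1 the stretch chr5:134688001-134690000 ended near the start, reached inward and read 2.01% over 123 CpGs.

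**Figure D2:**
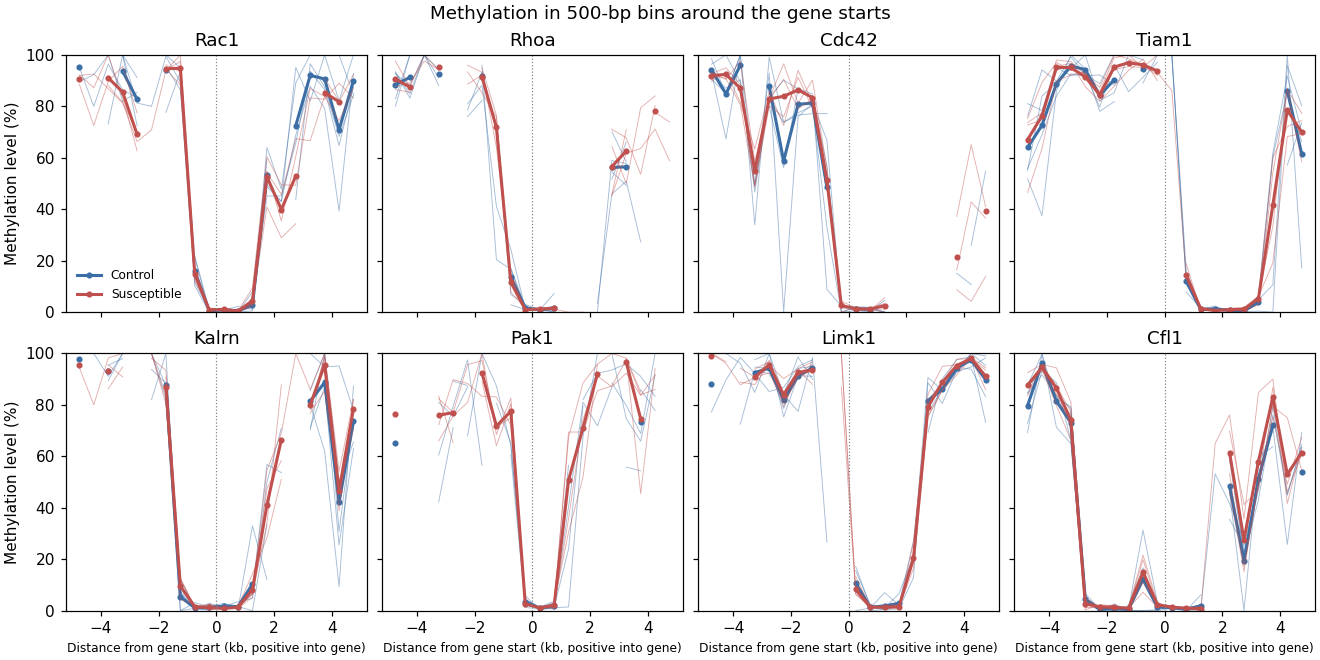
Methylation level in percent (y axis) in 500-bp bins by distance from the gene start in kb (x axis, positive into the gene, dotted line at 0), 1 panel per gene. Thin lines are libraries and thick lines are means over the libraries of a group, drawn where all of them list calls. The trough is centred near 0 in most panels and lies 1 to 3 kb inside Tiam1. The group means lie close in the trough and part in some bins outside it. In Rac1 at 2.75 kb, Control libraries read 43.8 to 95.1% and Susceptible libraries 34.4 to 67.4%.

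Counting tiles under 30% in the mean of all 9 libraries, the 8 genes and the 1000 bp around them held 15 low stretches, of which 8 contain a start listed in RefSeq's promoter sequences. Those at the starts covered 2 to 3 kb within these bounds and read 1.27% (Cdc42, chr4:137356001-137358000), 1.35% (Rhoa, chr9:108305001-108307000), 1.42% (Cfl1, chr19:5489001-5492000), 2.37% (Pak1, chr7:97788001-97790000), 2.64% (Kalrn, chr16:34572001-34575000) and 3.18% (Rac1, chr5:143526001-143529000). The Cfl1 and Kalrn stretches went on past the 1000 bp before their starts. Kalrn read 0 to 12.6% in the 500-bp bin centred 1.25 kb before its start and 80.4 to 100% in that centred 1.75 kb before. In 500-bp bins around the Cfl1 start, all 9 libraries read 0 to 6.67% in those centred 2.75, 2.25, 1.75 and 1.25 kb before it, but up to 31.3% in the bin centred 0.75 kb before it and from 65.0 to 81.1% in the bin centred 3.25 kb before it. In the Rac1 stretch the Control libraries read 3.55% ± 0.773 and the Susceptible libraries 2.71% ± 0.152, over 158 CpGs. The groups overlapped, at 2.63 to 4.45% in Control and 2.57 to 2.85% in Susceptible libraries. The smallest unadjusted p of its tiles was 0.566 (quasi-binomial model).

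Low stretches away from the outer start were found in 4 genes. Pak1 had one at an internal listed start 54.5 kb into the gene (chr7:97842001-97844000, 8.73%). Kalrn had 3 of 1 kb: chr16:34514001-34515000 at an internal listed start (24.3%), chr16:34469001-34470000 (18.7%) and chr16:34094001-34095000 (25.7%). Limk1 had chr5:134676001-134677000 (23.0%), within Gm10369. Tiam1 had chr16:89818001-89819000 at an internal listed start (24.5%) and chr16:89960001-89961000, 185 kb into the gene. The last held 34 CpGs, read 1.48% and contains no listed start. It read 1.17% ± 1.43 in Control and 1.86% ± 1.19 in Susceptible libraries. The 15 stretches hold 28 tested tiles, of which 0 had an unadjusted p under 0.05, beside 4.38% of all tiles, too few tiles to show a difference from that share. The lowest p, in the internal Pak1 stretch, was 0.055.

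The 11 listed starts of the members, each with 1000 bp on both sides, were compared as well. This set was added after the data had been seen. None passed the threshold, where 0 of 29521 listed starts did, 0%. None reached an unadjusted p under 0.05, against 4.82% of all listed starts. None had groups without overlap, against 1.87% (0.999% higher and 0.867% lower in Susceptible). The Susceptible mean was higher at 9 of the 11 and at 47.7% of all. The windows at the outer starts of Rhoa, Cdc42, Cfl1 and Pak1 were already among the 8 starts above. The 2 Rhoa windows also overlap each other, so the 11 are neither independent nor a separate result. The largest differences were at internal starts: the Kalrn start at chr16:34514027 read 28.6% ± 6.75 in Control and 32.7% ± 4.34 in Susceptible libraries. The internal Pak1 start at chr7:97842939 read 10.9% ± 4.52 and 14.6% ± 2.50, and its Control libraries ran from 6.03 to 16.2% and its Susceptible ones from 11.6 to 17.6%. At Limk1 the first listed start (chr5:134688590) read 2.32% ± 1.29 and 2.50% ± 0.628, and the second (chr5:134678248) read 85.2% ± 4.20 and 84.9% ± 3.25. These 2 starts of 1 gene thus lay at opposite ends of the scale in both groups.

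Gene bodies ranged from nearly unmethylated in the short Cfl1 to highly methylated in the long Tiam1 and Kalrn, and none of the 8 passed the test of a difference. Counting all CpGs from bound to bound, Tiam1 read 79.0% ± 0.747 in Control and 78.8% ± 1.01 in Susceptible libraries over 6139 CpGs, and Kalrn read 77.4% ± 1.44 and 78.2% ± 2.30 over 6006. Limk1 read 70.8% ± 1.58 and 70.3% ± 0.868, and Pak1 read 65.2% ± 2.23 and 64.2% ± 1.995. Cdc42 stood at 40.1% ± 4.75 and 40.6% ± 2.24. Cfl1, only 3577 bp long, read 6.07% ± 1.11 and 6.70% ± 1.29, which places it among the 3.15% of all 32372 tested bodies under 10%.

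The body of Rac1 read 51.1%, 46.1%, 49.1%, 59.3% and 48.3% in Control 2, 3, 4, 5 and 8. It read 51.6%, 46.7%, 49.0% and 50.4% in Susceptible 2, 3, 6 and 7. The body of Rhoa read 47.4%, 52.8%, 51.4%, 66.4% and 50.2%, and 48.8%, 52.4%, 51.8% and 53.6%, in the same order. In both genes Control 5, the library with the fewest listed calls in total though not per cytosine, stood above the other 8. The differences were -1.35 points in Rac1 and -1.97 points in Rhoa, and both turned positive without Control 5 (+0.782 and +1.21). Over the CpGs that all 9 libraries list, Control 5 read 50.8% in Rac1 and 52.8% in Rhoa, and in each gene a Susceptible library was higher (51.3% and 54.9%).

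Without the 1000 bp after the start, 7 of the 8 bodies read between 60 and 90%. Rhoa was the highest, at 88.6% ± 1.31 in Control and 88.8% ± 1.01 in Susceptible libraries. Rac1 read 65.4% ± 2.79 and 67.2% ± 2.01. Cfl1 read 25.9%, 25.1%, 17.9%, 24.8% and 22.5% in Control 2, 3, 4, 5 and 8, against 24.8%, 25.9%, 33.03% and 31.1% in Susceptible 2, 3, 6 and 7. Susceptible 6 and 7 lay clear of every Control library, Susceptible 3 was level with the highest Control library to 3 digits, and Susceptible 2 lay among them. Its difference of +5.50 points was the largest of the 8 (unadjusted p = 0.0742, quasi-binomial model, 43 CpGs). Limk1 had the opposite sign, 75.6% ± 1.25 in Control against 74.2% ± 0.762 in Susceptible libraries, also with overlap (unadjusted p = 0.0836).

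In bodies, 0 of 8 members passed the adjusted threshold, where 0 of 32372 did, 0%. At an unadjusted p under 0.05 it was 0 of 8, against 4.73% of all bodies. None was without overlap, against 1.61% of all bodies (0.476% higher and 1.14% lower in Susceptible). The Susceptible mean was higher in 3 of the 8 and in 40.6% of all bodies, and the median difference was -0.340 points in the 8 and -0.388 points in all.

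Differences larger than those of starts and bodies occurred in single 1-kb tiles, and none passed the threshold. The 8 genes and their 1000-bp margins hold 1228 tiles with listed CpGs, and 900 met the minimum of 3 CpGs and 20 calls in every library. 451 of these lie in Kalrn and 334 in Tiam1, against 34 in Limk1, 29 in Pak1, 22 in Rac1, 14 in Rhoa, 9 in Cdc42 and 7 in Cfl1, so the counts describe mostly the 2 largest genes. By level, 706 tiles read over 70%, 166 read 30 to 70% and 28 read under 30%.

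0 of the 900 tiles passed an adjusted p of 0.05, where 0 of 1041809 did, 0%. At an unadjusted p under 0.05 there were 46, or 5.11%, against 4.38% of all tiles. The groups did not overlap in 14 tiles, or 1.56%, the same share as the 1.56% of all tiles. Of these 14, 5 were higher in Susceptible and 9 lower, against 0.598% and 0.96% of all tiles. The Susceptible mean was higher in 54.3% of the 900 and in 47.6% of all tiles.

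The smallest p of the set was in Tiam1, at chr16:90042001-90043000, 103 kb into the gene. This tile of 16 CpGs read 64.2%, 57.0%, 62.0%, 69.2% and 60.4% in Control 2, 3, 4, 5 and 8, against 78.9%, 77.0%, 75.6% and 81.3% in Susceptible 2, 3, 6 and 7. The lowest Susceptible library stood above the highest Control library, from 185 to 384 calls each. The means were 62.6% ± 4.55 and 78.2% ± 2.44, a difference of +15.6 points (quasi-binomial model, unadjusted p = 0.000419, adjusted p = 0.997).

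**Figure D3:**
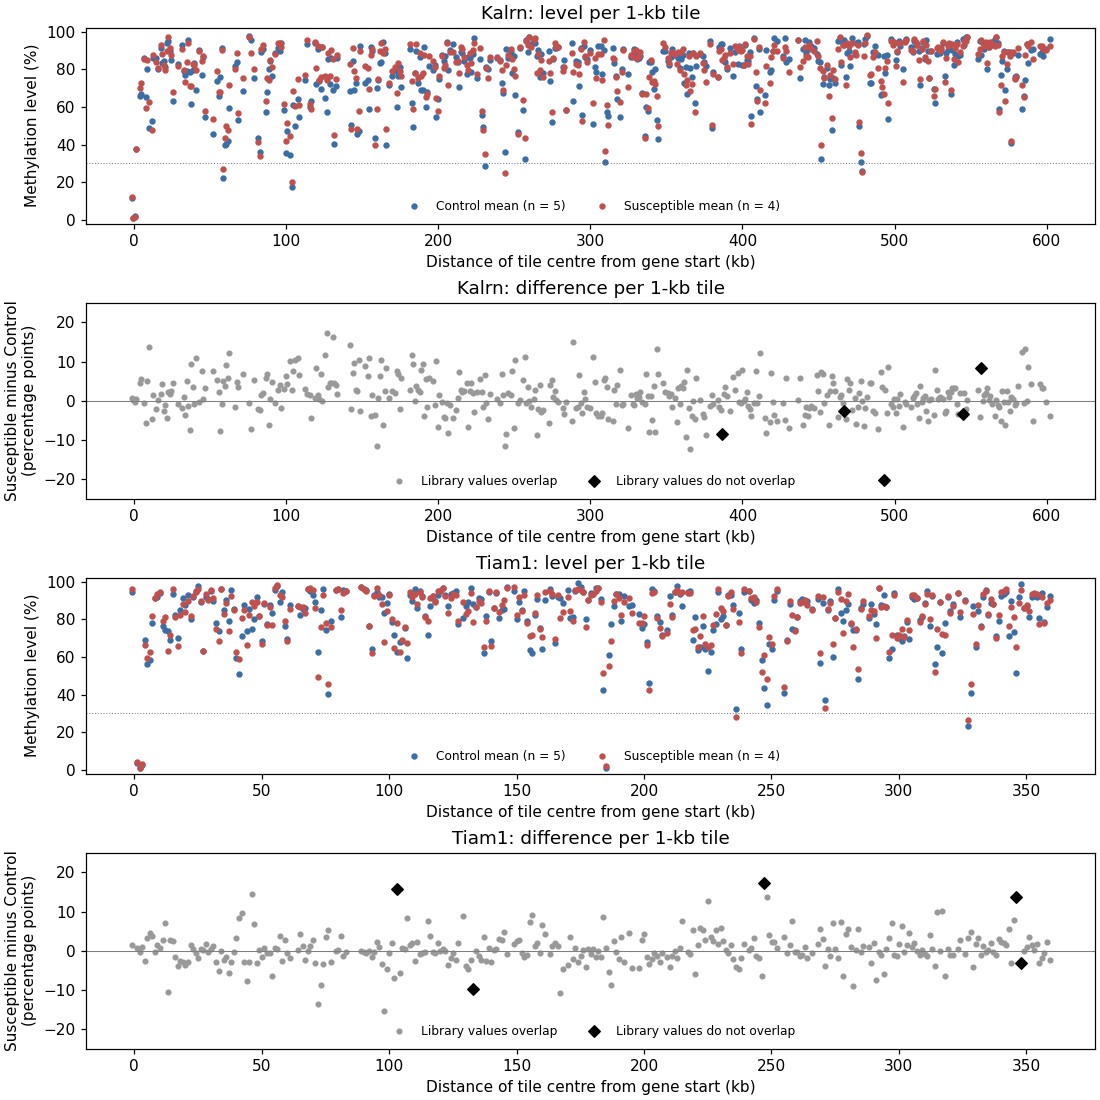
Level in percent and Susceptible minus Control difference in percentage points for each tested 1-kb tile of Kalrn and Tiam1, by distance of the tile's centre from the gene start in kb. Blue and red points are group means of 5 Control and 4 Susceptible libraries, the dotted line marks 30%, and black diamonds mark the 5 tiles of each gene whose library values do not overlap, which lie on both sides of 0.

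In Rac1 the tile of smallest p was chr5:143512001-143513000, with 8 CpGs. It read 80.5%, 65.5%, 76.0%, 62.1% and 67.0% in Control 2, 3, 4, 5 and 8, against 79.5%, 89.7%, 92.6% and 85.6% in Susceptible 2, 3, 6 and 7. Control 2 stood above Susceptible 2, and the other libraries were separate. The difference was +16.7 points (unadjusted p = 0.00282, adjusted p = 0.997). The neighbouring tile chr5:143511001-143512000, looked at after the values were seen, had the opposite sign, at 80.05% ± 11.4 in Control and 66.1% ± 8.24 in Susceptible libraries (unadjusted p = 0.0652).

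The tiles of smallest p in the other genes were read the same way, and all had adjusted p-values of 0.997. In Kalrn, chr16:33987001-33988000 read 74.1% ± 10.4 and 87.4% ± 6.45, a difference of +13.3 points with overlap. In Pak1, chr7:97791001-97792000, which also lies in the long noncoding RNA gene Gm39050, read 80.3% ± 13.8 and 95.5% ± 3.53. Its Control libraries ran from 59.6 to 95.6%. Cfl1 had chr19:5494001-5495000, which lies mostly past the end of the gene and read 59.2% ± 13.3 and 72.8% ± 2.19. Here too 1 Control library (73.7%) lay among the Susceptible values of 69.9 to 75%. Without Control 5 the difference went from +15.3 to +10.1 points in Pak1 and from +13.5 to +8.41 in Cfl1.

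Lower tiles in Susceptible libraries had the smallest p in Limk1 and Rhoa. In Limk1, chr5:134681001-134682000 read 96.0%, 98.04%, 96.5%, 96.8% and 95.3% in the Control libraries and 92.0%, 94.9%, 93.8% and 92.2% in the Susceptible ones. The groups did not overlap, although the difference was only -3.27 points (unadjusted p = 0.0202). In Rhoa, chr9:108338001-108339000 lies just past the end of the gene and read 26.7%, 30.6%, 58.8%, 79.9% and 47.4%, against 35.6%, 26.2%, 27.1% and 26.3%. Control 2 and Control 3 lay among the Susceptible values, and Control 5 was again the highest (unadjusted p = 0.0333). The Rhoa difference went from -19.9 to -12.1 points without Control 5. Its direction turned, to +2.22 points, in a fit with the library number as a block. That fit rests only on Control 2 and 3 and Susceptible 2 and 3, whose numbers both groups share. In Cdc42, chr4:137356001-137357000 read 0.110% ± 0.246 and 1.22% ± 0.908 (unadjusted p = 0.122).

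**Figure D4:**
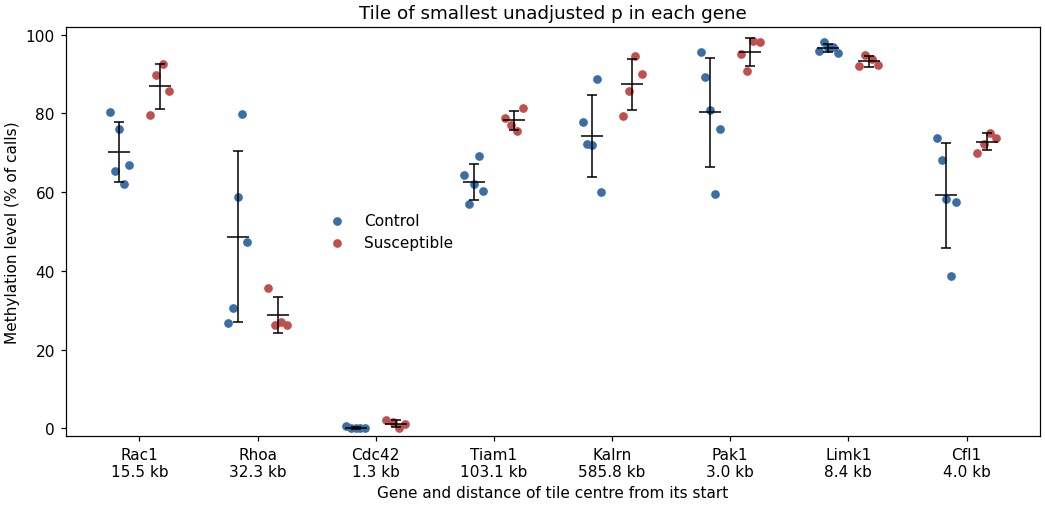
Methylation level in percent of calls (y axis) in the 1-kb tile of smallest unadjusted p of each gene, with the distance of its centre from the start in kb (x axis). Points are libraries and bars are the mean and SD of 5 Control and 4 Susceptible libraries. The groups are separate in Tiam1 and Limk1 and overlap in the other 6 genes.

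2 more tiles of the exchange factors, picked out after their values were seen, had large differences without overlap. In Tiam1, chr16:89898001-89899000 (30 CpGs) held the Control libraries between 41.0 and 45.2%, while Susceptible 2, 3, 6 and 7 read 57.9%, 46.5%, 78.2% and 61.1%. Its difference was +17.2 points (quasi-binomial model, unadjusted p = 0.00104, adjusted p = 0.997). Susceptible 6 was furthest from the Control libraries there, and its share of that difference was not tested. In Kalrn, chr16:34080001-34081000 (7 CpGs) read 83.3 to 91.1% in Control libraries and 76.7%, 82.3%, 68.9% and 39.9% in Susceptible 2, 3, 6 and 7. The difference was -20.3 points (quasi-binomial model, unadjusted p = 0.00654, adjusted p = 0.997). Susceptible 7 lay furthest from the Control libraries, and its part in the difference was not tested. In both tiles the Susceptible libraries spread more widely than the Control libraries, with SDs of 13.1 against 1.68 points in Tiam1 and 18.9 against 3.47 points in Kalrn.

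Kalrn had 14 tiles higher and 3 lower in Susceptible libraries at an unadjusted p under 0.05, or 3.77% of its tiles, and Tiam1 had 11 and 9, or 5.99%, beside 4.38% of all tiles. That share was not split by direction over all tiles, so it gives no reference for the 14 and 3. Tiles of 1 gene also come from the same libraries and are not replicates. Without overlap, 1 Kalrn tile was higher and 4 were lower, and Tiam1 had 3 and 2, beside 0.598% of all tiles higher and 0.96% lower. The median difference was +0.761 points over the Kalrn tiles and +0.0663 over the Tiam1 tiles, beside -0.181 over all tiles. The whole body of Kalrn read 76.7%, 78.2%, 76.1%, 79.5% and 76.4% in Control 2, 3, 4, 5 and 8, against 78.6%, 77.8%, 81.1% and 75.5% in Susceptible 2, 3, 6 and 7. Susceptible 6 was the highest of all 9 and Susceptible 7 the lowest, and without Susceptible 6 the body difference went from +0.840 to -0.102 points.

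74 other genes of the pathway were read in the same way, from a list of GTPases, exchange factors, GTPase-activating and dissociation proteins, kinases and phosphatases, and actin regulators. Of the 73 starts tested, 0 passed the threshold, 37 had a higher and 36 a lower Susceptible mean, where 47.2% of all starts were higher. An unadjusted p under 0.05 was reached by 7 of the 73, or 9.59%, against 4.81% of all starts. Their median difference was +0.00591 points. The smallest p was at Wasf3, a WAVE protein that links Rac1 to the Arp2/3 actin nucleator, on chromosome 5. Its start read 10.97%, 13.7%, 12.8%, 18.9% and 18.7% in Control 2, 3, 4, 5 and 8, against 8.21%, 7.40%, 7.83% and 7.25% in Susceptible 2, 3, 6 and 7. Each Susceptible library lay below every Control library, and the difference of -7.34 points missed the threshold (unadjusted p = 0.000307, adjusted p = 0.847). It was the only start of the 73 without overlap, or 1.37%, against 1.89% of all starts.

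Dock1, an exchange factor for Rac1, had a start at 25.1% ± 3.96 in Control and 17.2% ± 3.42 in Susceptible libraries, with overlap (unadjusted p = 0.0022, adjusted p = 0.970). Pak3, a brain kinase of the same family as Pak1, on the X, read 5.74% ± 3.83 and 2.08% ± 0.867 and also overlapped (adjusted p = 0.970). Its difference was -3.66 points, and it was +2.79 where a CpG had to be listed in each of the 9 libraries and +0.706 within 500 bp of the start. Of the 74 bodies, 0 passed the threshold, 36 were higher and 38 lower, where 40.6% of all bodies were higher. An unadjusted p under 0.05 was reached by 6 of the 74, or 8.11%, against 4.73% of all bodies, and 1 had no overlap, or 1.35%, against 1.61%. The body of Rasgrf1, an exchange factor for Ras and Rac, read 79.4%, 79.6%, 80.1%, 79.6% and 80.2% in Control 2, 3, 4, 5 and 8. It read 78.5%, 78.1%, 78.3% and 77.4% in Susceptible 2, 3, 6 and 7, so the groups were separate by a small step of -1.72 points (unadjusted p = 0.00217, adjusted p = 0.993). Dock10, an exchange factor for Rac1 and Cdc42, read 75.2% ± 1.54 and 72.6% ± 1.05. Arhgdia, which holds small GTPases in the inactive state, read 36.5% ± 2.80 and 43.1% ± 3.58, the only one of these 3 bodies that was higher in Susceptible libraries.

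**Figure D5:**
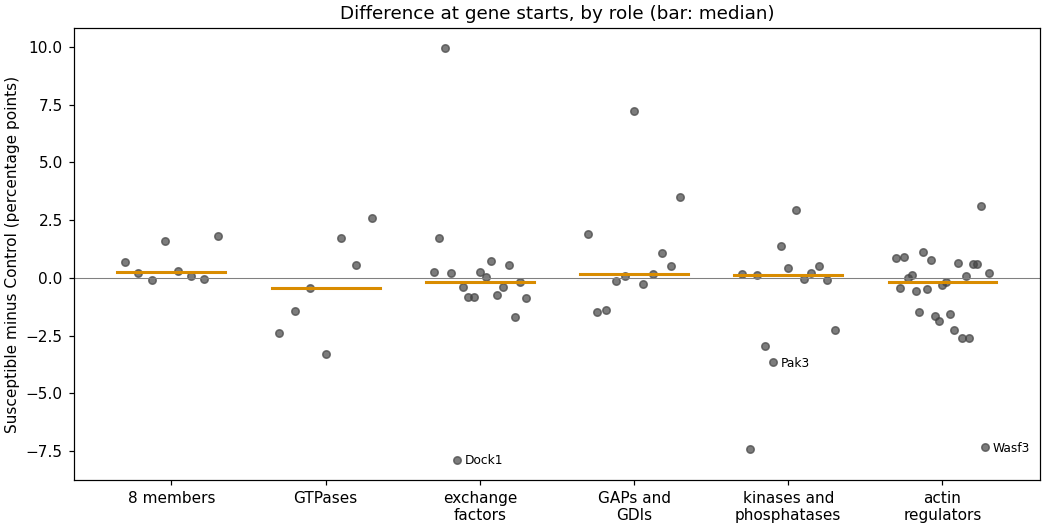
Susceptible minus Control difference in percentage points at the gene start (y axis) for the 8 members and the other tested pathway genes by role (x axis). Each point is a gene, orange bars are medians, and the labelled genes are the 3 with the smallest unadjusted p; the 8 members lie between -0.0811 and +1.84 and every median lies within 0.5 of 0.

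The total of listed calls and methylation at the starts, but not in the bodies, of oligodendrocyte genes moved with the groups. Listed calls ran from 313475558 to 570984634 per library over 13446559 to 22631489 cytosines, each with at least 10 calls, and every Susceptible library held more than every Control library, the closest pair being 432409939 and 430311977. Mean calls per listed cytosine overlapped, at 20.2 to 26.7 in Control and 21.8 to 25.2 in Susceptible libraries. Methylation at the starts of 6 oligodendrocyte genes ran from 27.8 to 31.6% in Control and from 21.96 to 26.7% in Susceptible libraries, which do not overlap, while their bodies did (67.2 to 71.7% and 66.4 to 69.5%). The starts of 8 striatal projection neuron genes read low in both groups, 6.97 to 10.1% and 7.46 to 8.75%, and those of 5 cortical projection neuron genes read 18.7 to 32.2% and 17.1 to 28.9%. The striatal bodies read 63.2% ± 1.40 in Control and 66.5% ± 4.74 in Susceptible libraries. Their ranges of 61.2 to 65.0% and 61.8 to 70.8% overlapped, but Susceptible 6 and 7 (70.3% and 70.8%) lay above every Control library. The cortical bodies overlapped too, at 44.6 to 51.2% and 45.6 to 48.4%. The starts of 5 astrocyte genes read 57.2% ± 6.25 in Control and 49.0% ± 8.24 in Susceptible libraries, with overlapping ranges of 50.2 to 65.6% and 36.8 to 54.4% and Susceptible 7 the lowest. The astrocyte bodies read 80.2% ± 0.742 and 78.1% ± 2.94, also with overlap and with Susceptible 7 the lowest (73.7%). At starts, the neuron, microglia and endothelium lists overlapped too, and their means differed by less than the SD of the Control libraries. In bodies the same held for microglia and endothelium. The neuron bodies read 69.4% ± 0.870 in Control and 70.3% ± 2.02 in Susceptible libraries, a difference just above the Control SD, with overlap. The part of total calls and of the mix of cell types in the tile, Wasf3 and Rasgrf1 differences was not tested.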

How the data were processed

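Per the file headers, each deposited file lists cytosines of CpGs by strand with a coverage column, the count of calls, and, in percent, the shares of C and of T among them. The authors listed only cytosines with at least 10 calls. Bismark, Bowtie, Picard and mm10 are named in the submitters' processing notes, without roles or versions, and removal of repeated reads is not given in the sources used here. A cytosine listed again was counted once, which touched 4 entries of Control 5 and 8 of Control 8.

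Methylated calls were recovered as the count times the percent of C and summed per library over starts, bodies and 1000-bp tiles on a fixed grid. A feature was tested where every library listed at least 3 CpGs and 20 calls in it. The test was a quasi-binomial logistic model over 5 Control and 4 Susceptible libraries, with the dispersion moderated across features as in limma's squeezeVar, never below 1. A two-sided F test was made of the group term, and p-values were adjusted by Benjamini-Hochberg over all features of a kind. A call needed an adjusted p under 0.05. The fit was first tested on simulated data and compared with limma 3.58.1. Differences are unweighted means of library levels, Susceptible minus Control. The median dispersion was 9.17 at starts, 17.9 in bodies and 6.33 in tiles, where 1 is counting error alone, and repeated reads of a molecule were not told apart.

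Gene bounds and sequences came from RefSeq, GRCm38.p6. Strand came from the promoter sequences for 26793 genes, and for 7531, Rac1 among them, the bound with more CpGs was taken as the start. Named features are the 8 members at starts and bodies, for each its tile of smallest p and its low stretches, and the 3 pathway genes of smallest p at starts and in bodies. The members and the lists were chosen with earlier results of these data known. Alternatives changed the CpGs counted, the minimum of calls, the window, the tile grid, the moderation, the model and the libraries. Python 3.11.15, numpy 2.4.6, scipy 1.17.1 and R 4.3.3 were used.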

Additional observations from a re-analysis of the deposited data

Results flagged for a closer look

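In 48 groups of library values, the highest or lowest library was compared with its nearest neighbour by Dixon's ratio, and 3 stood apart. About 1 group in 20 does so by chance. The body of Rhoa read 66.4% in Control 5, and the next Control library read 52.8%. Over the CpGs that all 9 libraries list, Control 5 read 52.8% there. Without the 1000 bp after the Rhoa start it read 87.0%, the lowest of the 9 libraries. The body of Cfl1 read 8.63% in Susceptible 6, and the next Susceptible library read 6.15%. The body of Rac1 without the 1000 bp after its start read 70.2% in Control 5, and the next Control library read 64.7%. Control 5 has the fewest listed calls in total of the 9 libraries, and the part of that in its values was not tested.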

How the results depend on the processing

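The count of features past the threshold stayed 0 for starts, bodies and tiles in every alternative that kept all 9 libraries. Leaving out 1 library at a time gave 0 to 1 starts, 0 to 0 bodies and 0 to 1 tiles: 1 start without Control 4 and 1 without Susceptible 7 (smallest adjusted p 0.0321 and 0.0474), and 1 tile without Control 4 (0.0378). With limma on logit methylation, 0 passed, and 1186 starts, 1347 bodies and 33856 tiles had an unadjusted p under 0.05.

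No member or named pathway gene passed an adjusted p of 0.05 in any alternative, but the sign of many small differences changed, in percentage points as follows. At starts, with CpGs listed in all 9 libraries: Limk1 -0.619, Pak1 -0.838 and Pak3 +2.79. With at least 20 calls per cytosine: Rac1 -0.408, Cdc42 -0.0283, Tiam1 -3.55 and Cfl1 -0.324. With 500 bp on each side: Cdc42 -0.0284, Pak1 -0.341 and Pak3 +0.706. With 2000 bp on each side: Rac1 -0.316, Cdc42 -1.46, Tiam1 -0.987, Cfl1 -0.0376 and Limk1 -1.50. In bodies, with CpGs listed in all 9 libraries: Cdc42 -2.31, Cfl1 -0.0260, Limk1 +1.13 and Pak1 +0.523. Without the 1000 bp after the start: Rac1 +1.88 and Rhoa +0.186. The named tiles have no counterpart on the grid moved by 500 bp.

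Leaving out 1 library at a time moved the starts of Rac1 from -0.0789 to +0.352, Rhoa from -0.156 to +0.120, Cdc42 from -0.164 to +1.87, Kalrn from -0.187 to +0.115 and Cfl1 from -0.0163 to +0.535, and without a change of sign Tiam1 from +0.628 to +3.06, Limk1 from +0.7855 to +2.22 and Pak1 from +0.0654 to +0.517. It moved the bodies of Rac1 from -2.51 to +0.782, Rhoa from -3.52 to +1.21, Cdc42 from -0.619 to +2.16, Tiam1 from -0.585 to +0.170, Kalrn from -0.102 to +1.76 and Cfl1 from -0.00689 to +1.08, and without a change of sign Limk1 from -1.17 to -0.181 and Pak1 from -1.78 to -0.158. The start of Wasf3 (-8.35 to -6.37) and the body of Rasgrf1 (-1.86 to -1.49) kept their sign. Both were chosen for their p in all 9 libraries, and their groups did not overlap. Leaving out 1 library could therefore not change the sign of either. The 8 named tiles were chosen for their p in all 9 libraries, so their constant sign is no sign of stability: Tiam1 +14.2 to +17.3, Rac1 +14.6 to +19.2, Kalrn +9.75 to +16.9, Pak1 +10.1 to +19.1, Cfl1 +8.41 to +17.1, Cdc42 +0.791 to +1.52, Limk1 -3.81 to -2.87 and Rhoa -25.4 to -12.1. The unadjusted p was over 0.05 for the Rhoa tile without Control 4, Control 5, Susceptible 6 or Susceptible 7 (up to 0.143), for the Cfl1 tile without Control 5 or Susceptible 6 (up to 0.129) and for the Limk1 tile without Control 3 or Susceptible 2 (up to 0.0684).

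Libraries of both groups share only the numbers 2 and 3. The deviations of same-numbered libraries from their group means correlated at 0.0231 and -0.0286 across tiles, where other pairs ran from -0.0780 to 0.131. The labels do not say what the numbers stand for, and these correlations cannot decide whether they pair the libraries. The replicate block can use only numbers that both groups share, so that fit rests on Control 2 and 3 and Susceptible 2 and 3. With it, 0 starts, bodies and tiles passed (1729, 1505 and 50753 at an unadjusted p under 0.05). Signs changed at the starts of Rhoa (+0.166), Kalrn (+0.0401) and Pak1 (-0.0477), in the bodies of Rac1 (+0.559), Rhoa (+0.477), Cdc42 (-2.37) and Pak1 (+1.03), and in the Rhoa tile (+2.22). These values leave out Control 4, 5 and 8 and Susceptible 6 and 7, and any further cause of the changes was not tested.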
